A study of Mus musculus with 3 samples.

Results

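The nuclear genes that encode the subunits of oxidative phosphorylation were measured in mouse thymocytes, which are T cells still maturing in the thymus, on Affymetrix mouse gene arrays. The members were chosen by name: every gene with a single annotated symbol of the Nduf, Sdh, Uqcr, Cox4 to Cox8 or Atp5 series, which gave 81 of 19938 named genes. The 3 arrays hold thymocyte RNA of 3 mice, numbered 92, 103 and 106, of wt genotype on a background of FVB mixed with C57BL6, and no treatment, transgene, age or sex is given for them. They serve as normal tissue in a study of an invasive lymphoma. Its tumours were not analysed here, which left 1 group and no comparison between groups. Although the genotype reads wt, the labels give T cell lymphoma as the disease state of these mice. Each sample is also labelled with 0.3 µg of input RNA and a RIN (the RNA integrity score) of 3, which is low.

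Oxidative phosphorylation takes place in the inner mitochondrial membrane. Complexes I and II pass electrons from NADH and succinate to ubiquinone, complex III passes them on to cytochrome c, and complex IV, cytochrome c oxidase, hands them to oxygen. Complexes I, III and IV pump protons, and complex V, the ATP synthase, uses their return flow to make ATP. Most subunits are nuclear-encoded and used in every tissue, but several small subunits of complex IV have additional isoforms for heart and skeletal muscle, lung or testis.

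The arrays carried the markers of the labelled cells. All 11 measured thymocyte genes, such as Cd8a and Rag1, were above background on all 3 arrays, against 61.8% of all named genes. Of the 11, 9 were highest in mouse 92, by small amounts (median deviation from the 3-mouse mean 0.04), against 37.4% of all genes tested. Rag2, at 10.24, 9.41 and 9.91, had the widest range of them. Markers of other cells also differed between the mice. The median log2 level of 10 neutrophil genes was 6.44, 8.15 and 7.80 in mice 92, 103 and 106, and that of 7 B cell genes was 6.60, 7.60 and 7.33. Of 5 erythroid genes 4 were lowest in mouse 92 and Epor in mouse 106; Alas2, of haem synthesis in red cells, was at 8.18, 10.14 and 10.03. All 10 neutrophil and all 7 B cell genes were lowest in mouse 92, against 35.1% of all genes tested. The part of such cells in the values of the subunit genes was not tested. Fewer cells of a type and less RNA per cell cannot be told apart in such bulk samples.

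Nearly every subunit gene was detected in thymocytes. A gene counted as above background when it exceeded, on each array, the 95th percentile of 1207 genes of chemosensory receptors (olfactory, vomeronasal and trace amine), a log2 level between 5.91 and 6.10. By this rule 79 of 81 members were above background on all 3 arrays, against 61.8% of all named genes. With the 99th percentile in its place 76 of 81 members passed, against 46.8% of all named genes. Complexes I (33 of 33 genes), II (4 of 4), III (8 of 8) and V (17 of 17) passed in full. In complex IV 15 of 17 passed, and both genes that did not are tissue isoforms. The 72 subunits of complexes I to V that are not tissue isoforms all passed. Probes differ in affinity, so the log2 levels below show whether a gene was above background and how it varied between mice, and not which gene had more transcript.

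**Figure D1:**
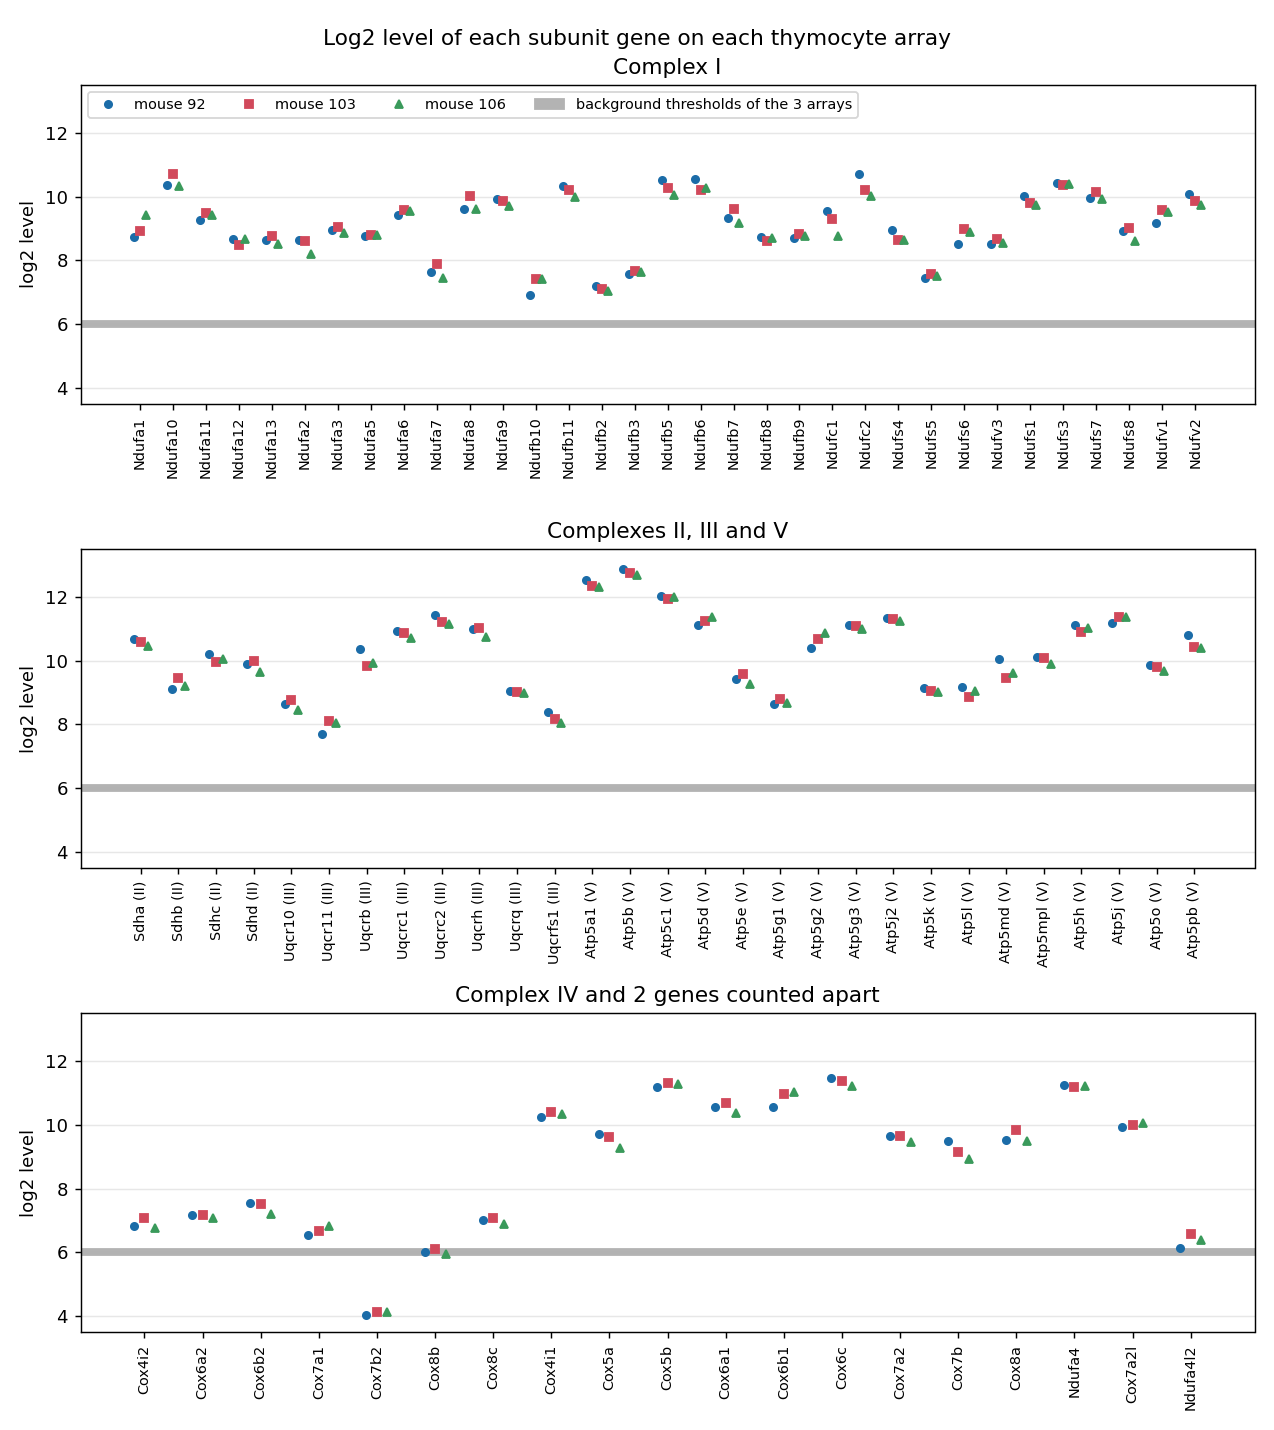
Log2 level (vertical axis) of each of the 81 genes (horizontal axis) on the arrays of mice 92, 103 and 106, with the range of the 3 background thresholds (5.91 to 6.10) as a grey band. All 33 complex I genes and all genes of complexes II, III and V lie above the band; Cox7b2 lies below it and Cox8b within it.

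In complex I the 6 measured core genes carry the flavin and the iron-sulfur clusters or form the path of the electrons to ubiquinone. Ndufs3 read 10.43, 10.37 and 10.40 (log2 levels of mice 92, 103 and 106), nearly the same in each mouse. Ndufs7 was at 9.95, 10.14 and 9.93, highest in mouse 103. Ndufv2 stood at 9.88 ± 0.17 and Ndufs1, the largest of the core subunits, at 9.85 ± 0.15 (log2 level, SD, n = 3). Ndufv1, which binds the flavin and takes the electrons from NADH, was at 9.17, 9.58 and 9.53, lowest in mouse 92. Ndufs8 was at 8.93, 9.02 and 8.60, lowest in mouse 106. The 27 accessory genes, whose products surround and stabilise the core, had mean log2 levels between 7.11 (Ndufb2) and 10.46 (Ndufa10). Ndufa10 was at 10.35, 10.71 and 10.33 and Ndufb6 at 10.55, 10.22 and 10.26. The genes nearest to background were Ndufb2, at 7.19, 7.10 and 7.04, and Ndufb10, at 6.93, 7.41 and 7.43, and both exceeded the threshold of every array. Ndufa5 had the smallest range of all 80 members tested, with 8.77, 8.79 and 8.78.

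Complex II is succinate dehydrogenase, the enzyme shared by the respiratory chain and the citric acid cycle. Its flavoprotein gene Sdha was at 10.68, 10.57 and 10.45 (10.57 ± 0.12, SD, n = 3), its iron-sulfur gene Sdhb at 9.10, 9.47 and 9.21 (9.26 ± 0.19), and its membrane anchors Sdhc and Sdhd at 10.08 ± 0.13 and 9.85 ± 0.17 (log2 level, SD, n = 3). All 4 were at least 3.19 above the threshold of every array.

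In complex III Uqcrc2 and Uqcrc1, the large core proteins on the matrix side, were at 11.26 ± 0.14 and 10.83 ± 0.11, and the hinge protein gene Uqcrh at 10.91 ± 0.15 (log2 level, SD, n = 3). Uqcrfs1, which encodes the Rieske iron-sulfur protein, was at 8.39, 8.18 and 8.04 in mice 92, 103 and 106. Of the small subunits, Uqcrq read almost alike in the mice (9.02 ± 0.03, SD, n = 3), whereas Uqcrb was at 10.36, 9.83 and 9.92, highest in mouse 92, and Uqcr11 at 7.70, 8.11 and 8.04, lowest in mouse 92. Cyc1, the cytochrome c1 subunit of this complex, is not named by the rule and was at 10.12, 10.19 and 10.14.

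Complex V has a catalytic F1 head, a rotating ring of c subunits, a peripheral stalk and small membrane subunits. The catalytic beta subunit gene Atp5b was at 12.87, 12.74 and 12.70, the alpha subunit gene Atp5a1 at 12.53, 12.35 and 12.31, and the gamma subunit gene Atp5c1, the central shaft, at 12.03, 11.95 and 11.99. All 3 genes of the c ring were above background together. They encode the same mature c subunit behind different import sequences. Atp5g3 was at 11.11, 11.08 and 10.99, with little spread, and Atp5g1 at 8.64, 8.79 and 8.67. Atp5g2 was at 10.39, 10.68 and 10.88, lowest in mouse 92. Of the peripheral stalk, Atp5j was at 11.31 ± 0.11, Atp5h at 11.01 ± 0.11, Atp5pb at 10.54 ± 0.22 and Atp5o at 9.78 ± 0.09 (log2 level, SD, n = 3). Atp5l, Atp5k, Atp5md, Atp5mpl and Atp5j2, the small membrane subunits, had mean log2 levels between 9.03 and 11.30. All 5 were highest in mouse 92, as were 37.4% of all genes tested.

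In complex IV the forms used in most tissues were all detected, and the tissue isoforms in part. All 10 genes of the forms used in most tissues were above background, with mean log2 levels between 9.19 (Cox7b) and 11.34 (Cox6c). Among these are Cox6a1 and Cox7a2, the forms known as the liver type, which also serve most other tissues. The count of 10 includes Ndufa4, first described as a complex I subunit and now assigned to complex IV, at 11.24, 11.18 and 11.22. Of the 7 tissue isoforms, 5 (71.4%) passed on all arrays, but none had a mean above 7.42. This share was near the 61.8% of all named genes. With the 99th percentile of the receptor genes as the threshold 3 of the 7 passed, namely Cox6a2, Cox6b2 and Cox8c, where 46.8% of all named genes did.

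The muscle isoform Cox6a2 was at 7.16, 7.17 and 7.09 in mice 92, 103 and 106, while its partner Cox6a1 was at 10.57, 10.69 and 10.37. Cox7a1, also of muscle, was at 6.53, 6.68 and 6.81, between the 95th and the 99th percentile of receptor genes on each array, and its partner Cox7a2 was at 9.65, 9.64 and 9.45. Cox8b, the third muscle isoform, was at 6.02, 6.09 and 5.95, and exceeded the threshold on the array of mouse 92 only, while Cox8a was at 9.52, 9.83 and 9.51. On the array where it was nearest to background Cox6a2 lay 1.07 above the threshold, and Cox7a1 0.58 above it. Among the markers of skeletal muscle itself 8 of 12 (66.7%) were above background, with median log2 levels of 6.51, 6.58 and 6.63. The myosin genes Myh1 and Myh4 were below it. Of the cardiac muscle markers 4 of 8 (50%) passed. Both shares compare with 61.8% of all named genes, so these counts do not set the muscle markers apart from other genes. The part of such cells in the muscle isoform values was not tested.

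The testis isoforms did not read alike. Cox7b2 was at 4.04, 4.12 and 4.12, higher than 50.95%, 48.47% and 52.36% of the receptor genes, and was the only member below background on all 3 arrays. Cox6b2 was at 7.54, 7.51 and 7.20 and Cox8c at 7.00, 7.09 and 6.89, both above the 99th percentile of receptor genes on each array. Their ubiquitous partners were Cox7b, at 9.48, 9.15 and 8.93, and Cox6b1, at 10.55, 10.95 and 11.03. Testis germ cell markers passed in 3 of 10 cases, against 61.8% of all named genes, and Cyct, the testis form of cytochrome c, was at 3.27, 3.26 and 3.33, below background. The lung isoform Cox4i2 was at 6.83, 7.07 and 6.77, and Cox4i1 at 10.26, 10.40 and 10.34.

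**Figure D2:**
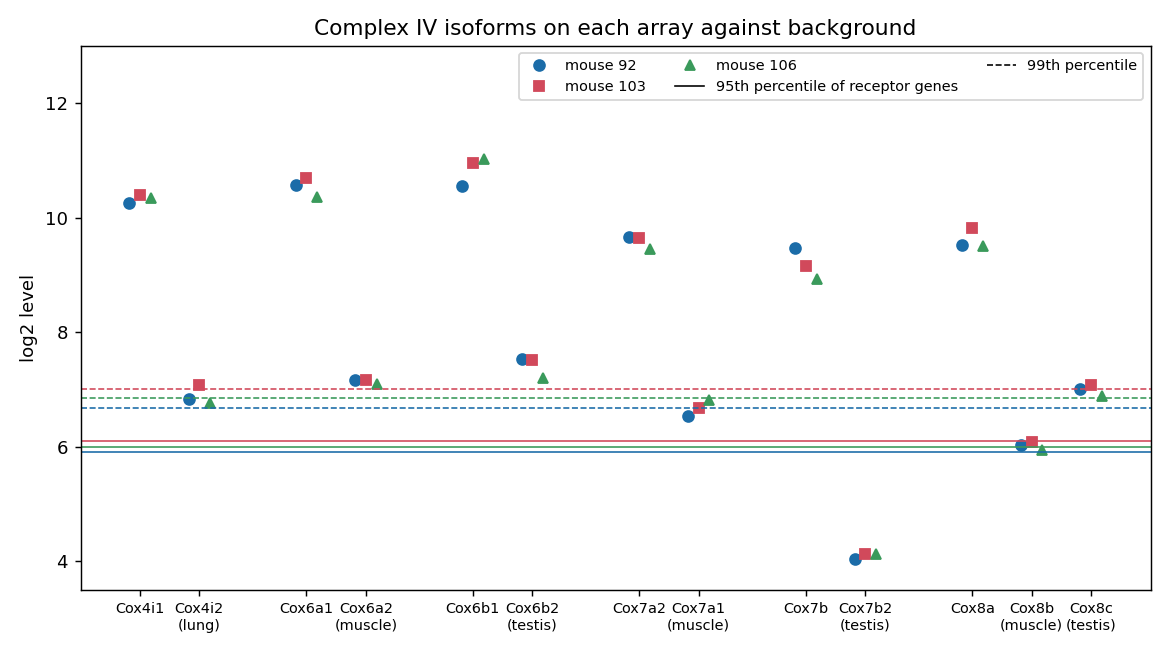
Log2 level (vertical axis) of the complex IV isoforms (horizontal axis, tissue isoforms marked by tissue) on the 3 arrays, with the 95th and 99th percentiles of receptor genes on each array as solid and dashed lines in the colour of the mouse. The ubiquitous forms lie between 8.93 and 11.03, the tissue isoforms between 4.04 and 7.54.

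The symbol rule also takes in a paralog and an assembly factor, which were counted apart. Ndufa4l2, a paralog of Ndufa4 known as a hypoxia-induced gene, was at 6.14, 6.56 and 6.37, above the threshold by 0.22 on the array where it was nearest, and it did not pass the 99th percentile. Cox7a2l, which helps to join complexes III and IV into supercomplexes, was at 9.99 ± 0.06 (log2 level, SD, n = 3).

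Promoters of 66 of the 81 members were found in the RefSeq table of build GRCm38.p6 by Entrez identifier; each spans 250 bases before and 50 after an annotated start, and a gene with several starts counted once. Cox4i1, Cox4i2, Cox6a2 and Cox8c are among the 15 members without an entry. The 5 printed below show a promoter with matches to motifs of nuclear respiratory factors (Cox6a1), that of a c ring gene (Atp5g2), a ubiquitous form beside its muscle isoform (Cox8a and Cox8b), and the gene below background on all arrays (Cox7b2). Only the 250 bases before the start are given, 5′ to 3′ on the strand of the gene. Capitals mark letters of the motifs that follow.
Cox6a1, chr5:115348959-115349208, minus strand: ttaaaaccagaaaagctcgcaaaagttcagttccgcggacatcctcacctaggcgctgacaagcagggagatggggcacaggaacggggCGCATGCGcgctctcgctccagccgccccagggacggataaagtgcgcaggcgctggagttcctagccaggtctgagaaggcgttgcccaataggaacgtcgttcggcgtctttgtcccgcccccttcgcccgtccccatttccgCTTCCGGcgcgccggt
Atp5g2, chr15:102671048-102671297, minus strand: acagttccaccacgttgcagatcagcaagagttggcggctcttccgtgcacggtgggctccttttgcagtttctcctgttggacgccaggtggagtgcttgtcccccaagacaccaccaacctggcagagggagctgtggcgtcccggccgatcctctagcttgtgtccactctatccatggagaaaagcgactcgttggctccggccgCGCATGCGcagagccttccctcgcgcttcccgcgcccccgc
Cox8a, chr19:7217617-7217866, minus strand: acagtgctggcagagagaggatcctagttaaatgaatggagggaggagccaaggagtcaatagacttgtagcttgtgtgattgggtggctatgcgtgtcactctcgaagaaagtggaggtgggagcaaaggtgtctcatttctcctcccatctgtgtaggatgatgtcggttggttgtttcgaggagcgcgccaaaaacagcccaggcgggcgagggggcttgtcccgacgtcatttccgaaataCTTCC
Cox8b, chr7:140900447-140900696, minus strand: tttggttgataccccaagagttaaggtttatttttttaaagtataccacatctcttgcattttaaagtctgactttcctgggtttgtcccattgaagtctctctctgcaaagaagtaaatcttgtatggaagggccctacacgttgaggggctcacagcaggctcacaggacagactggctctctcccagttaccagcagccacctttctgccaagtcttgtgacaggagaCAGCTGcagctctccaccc
Cox7b2, chr5:71548206-71548455, minus strand: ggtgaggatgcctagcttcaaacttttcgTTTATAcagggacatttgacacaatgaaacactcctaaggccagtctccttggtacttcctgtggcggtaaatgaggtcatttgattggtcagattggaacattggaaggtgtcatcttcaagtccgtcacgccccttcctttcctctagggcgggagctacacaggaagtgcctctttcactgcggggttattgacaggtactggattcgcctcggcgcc

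The motifs were searched on both strands of the 300 bases. The NRF1 letters CGCATGCG were present in 9 of 66 members (13.6%), against 2.07% of 27025 genes with a promoter, among them Cox6a1 at 161 and Atp5g2 at 41 bases before the start. The ETS and GABP letters CCGGAAG were present in 17 of 66 (25.8%, all genes 9.93%). In Cox6a1 they begin 16 bases before the start, and in Cox8a a match crosses the start, so that its first 5 letters are shown. The YY1 letters AAGATGGC were found in 10 of 66 members (15.2%, all genes 3.19%) and the ERR letters TCAAGGTCA in 2, Atp5g3 and Sdhd (3.03%, all genes 0.466%). The 4 tissue isoforms with an entry, Cox6b2, Cox7a1, Cox7b2 and Cox8b, held 0 matches to these 4 motifs. This does not set them apart, because each motif was absent from most of the 62 other members as well. Of those, 9 held the NRF1, 17 the ETS and GABP, 10 the YY1 and 2 the ERR letters. Among the ubiquitous partners, Cox6b1 and Cox8a held the ETS and GABP letters, but Cox7a2 and Cox7b held none of the 4 motifs. Cox8b had the letters CAGCTG, an E-box of the kind bound by myogenic factors, 19 bases before the start and again after it; 6 of 66 members (9.09%) and 18.3% of all genes hold them. The TATA box letters TATAAA were found in 8 of 66 members (12.1%, all genes 15.7%), among them Cox7b2, on the opposite strand 221 bases before the start, and Cox8b, just after the start. The 300 bases of Cox6a1, Atp5g2 and Cox8a held 32, 20 and 19 CG pairs, and those of Cox8b and Cox7b2 held 2 and 10. Cox6b1 and Cox7a2 held 17 and 20, and their tissue isoforms Cox6b2 and Cox7a1 held 10 and 7. Cox7b, the ubiquitous partner of Cox7b2, went the other way with 5. The median was 19 for members and 8 for all genes, counting the richest start of each gene. These matches describe letters in a window, and base composition was not matched between members and other genes.

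The factors that are known to bind these motifs were themselves above background. Nrf1 was at 9.45, 9.48 and 9.50, Gabpa at 10.34, 10.14 and 10.19, Yy1 at 11.20, 11.05 and 11.10 and Esrra at 8.24, 8.37 and 8.37 (log2 levels in mice 92, 103 and 106). The coactivator Ppargc1a, a regulator of mitochondrial biogenesis in muscle and brown fat, was below background, at 3.55, 3.42 and 3.44. In all 16 of 17 measured regulators of mitochondrial biogenesis were above background, against 61.8% of all named genes.

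Most other genes of the pathway were detected too, by the rule that 61.8% of all named genes passed. Of the assembly factors, which build the complexes without staying in them, 39 of 42 measured genes were above background on all 3 arrays; Nubpl and Lyrm7 passed on no array and Sdhaf4 on 2. Citric acid cycle genes passed in 15 of 16 cases, the exception being Pdha2, the testis form of a pyruvate dehydrogenase subunit. Of the carriers and subunits that the symbol rule does not name 11 of 13 passed, including Ndufab1, a further complex I subunit, at 9.23, 8.87 and 9.03, and cytochrome c, Cycs, at 8.77, 8.39 and 8.75. Cyct and Slc25a31, the testis form of the ADP/ATP carrier, did not. Probe sets named COX2 and ND3, genes of the mitochondrial genome, read 13.42, 13.18 and 13.38 and 11.58, 11.12 and 11.37; they were looked up after the other values had been seen.

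No subunit gene passed the test of variation between mice. In a limma test of each gene's variance against genes of like level, 0 of the 80 members tested passed after Benjamini-Hochberg adjustment over 13314 genes. This is near the 0.225% of all genes that passed, so it does not set the members apart. The smallest adjusted p of a member was 0.674 (limma). The test asks whether a gene varied more than genes of like level, so not passing is not an absence of variation. At an unadjusted p under 0.05 there were 4 members, against 4.84% of all genes. With a mouse left out this count was 8 without mouse 92 (5.65% of all genes), 6 without mouse 103 (5.80%) and 4 without mouse 106 (5.63%). The 30 genes that did pass became 58, 48 and 84 with mouse 92, 103 or 106 left out, and the members among them stayed at 0. The smallest range of a gene that passed was 1.45 on the log2 scale and the largest of a member was 0.76. The median range was 0.26 for members and 0.25 for all genes tested. A range of 0.5 or more was found in 7 members, against 10.0% of all genes. Over the pairs of mice that remain, where a range is narrower, this count was 2 without mouse 92 (3.0% of all genes), 5 without mouse 103 (4.74%) and 2 without mouse 106 (6.12%).

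The 5 members with the largest ranges, none of which passed the test, were led by Ndufc1, a membrane arm subunit of complex I, at 9.53, 9.31 and 8.77 in mice 92, 103 and 106, a 1.70-fold range (adjusted p = 0.674, limma). Ndufa1, which is needed for assembly of complex I, was at 8.74, 8.91 and 9.44, a 1.62-fold range in the opposite direction (adjusted p = 0.764, limma). Ndufc2, the partner of Ndufc1 in the membrane arm, was at 10.69, 10.21 and 10.03, highest in mouse 92 as Ndufc1 was (adjusted p = 0.797, limma). Atp5md, a small ATP synthase subunit, was at 10.05, 9.46 and 9.60, highest in mouse 92 (adjusted p = 0.940, limma). Cox7b was at 9.48, 9.15 and 8.93, with the same order as Ndufc1 and Ndufc2 (adjusted p = 0.996, limma). Ndufa1, Cox7b and Ndufb11 are the 3 members on chromosome X, and Ndufb11, at 10.34, 10.19 and 9.97, had the same order as Cox7b, highest in mouse 92, where Ndufa1 was lowest.

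Most members read lowest in mouse 106, by small amounts. The median deviation of the 80 members tested from their 3-mouse means was -0.08 in mouse 106, 0.04 in mouse 103 and 0.03 in mouse 92, where that of all genes tested was -0.02, 0.02 and 0.00. After quantile normalisation or cyclic loess the median in mouse 92 was -0.01 and -0.0012, and that in mouse 106 was -0.07 in both. Of the 80 members 44 were lowest in mouse 106, against 36.6% of all genes, and 8 were highest there, against 23.5%. The counts of lowest members lay between 40 and 46 and those of highest members between 8 and 12 under the other normalisations. Mouse 92 was highest for 38 members (all genes 37.4%) and mouse 103 for 34 (all genes 39.1%). Mouse 92 was lowest for 24 members (all genes 35.1%) and mouse 103 for 12 (all genes 28.3%). The median difference of mouse 106 from mouse 103 was -0.08 over members and -0.04 over all genes tested, and that from mouse 92 was -0.11 and -0.03. The low reading was not particular to the subunits. In mouse 106 the median deviation of 15 citric acid cycle genes was -0.11, with 10 of them lowest there. For 40 assembly factors it was -0.08, with 18 lowest there. For genes of the mitochondrial ribosome it was nearer to that of all genes, at -0.03, yet 35 of the 77 were lowest there. For 16 regulators of mitochondrial biogenesis it was -0.003, with 3 lowest there. For 11 carriers and subunits that the symbol rule does not name it was -0.03, with 3 lowest there. Subunit genes share cells and arrays, so that these counts are not independent observations. They were described with no test.

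The complexes shared the low reading in mouse 106. The median deviation there was -0.09 for complex I, -0.08 for complex II, -0.12 for complex III, -0.11 for complex IV and -0.06 for complex V. That of all genes tested was -0.02. In complex II 2 of 4 genes were lowest there. The mean deviation of complex V, -0.03, was near the -0.02 of all genes tested, and that of its 3 c ring genes was 0.04. The other mice differed more by complex. In mouse 103 the median was 0.06 for complex I and -0.01 for complex V, and in mouse 92 it was -0.01 for complex I, 0.08 for complex III and 0.07 for complex V. Of the 17 complex V genes 12 were highest in mouse 92, and of the 33 complex I genes 13, against 37.4% of all genes tested. The complex I count is near that share. The counts per complex were not repeated after quantile normalisation or cyclic loess, where the median of all members in mouse 92 was -0.0059 and -0.0012. The thymocyte markers were also mostly highest in that mouse (9 of 11), and the part of the cells' makeup in these counts was not tested.

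**Figure D3:**
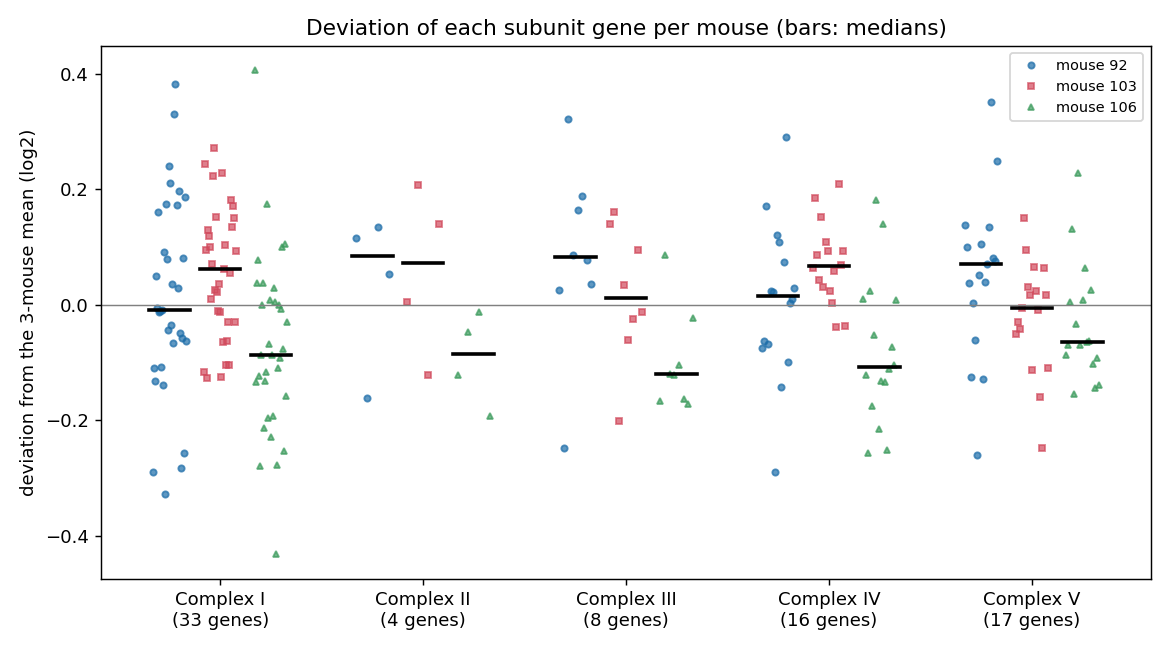
Deviation of each gene from its 3-mouse mean (vertical axis, log2) by complex (horizontal axis) and mouse, with black bars at the median over genes. The medians of mouse 106 lie between -0.12 and -0.06 in all 5 complexes, and single genes of every mouse lie on both sides of 0.

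Genes with several probe sets showed how far a level depends on the probes. There were 16 such members, and the means of probe sets named for the same gene differed by 0.05 (Atp5g1) to 1.91 (Atp5md) on the log2 scale, with a median gap of 0.40. In 15 of the 16 genes all probe sets were lowest in the same mouse, and in 11 all were highest in the same mouse. The 3 probe sets of Atp5md were all highest in mouse 92, as were the 3 of Uqcrb, while the 3 of Atp5g2 were all lowest there. Both probe sets of Ndufc1 were lowest in mouse 106. Probe sets of the same gene may read the same transcripts. RefSeq also lists 18 pseudogenes with symbols of the subunit series, which the probes may not tell from the parent gene. Some are named for genes with several probe sets, such as Atp5l, Atp5pb and Cox5b. Others are named for genes with 1 probe set, such as Atp5k and Uqcrh. None is named for Atp5md, Atp5g2 or Uqcrb, but pseudogenes under other symbols were not searched for, so copies of these genes may exist too.

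**Figure D4:**
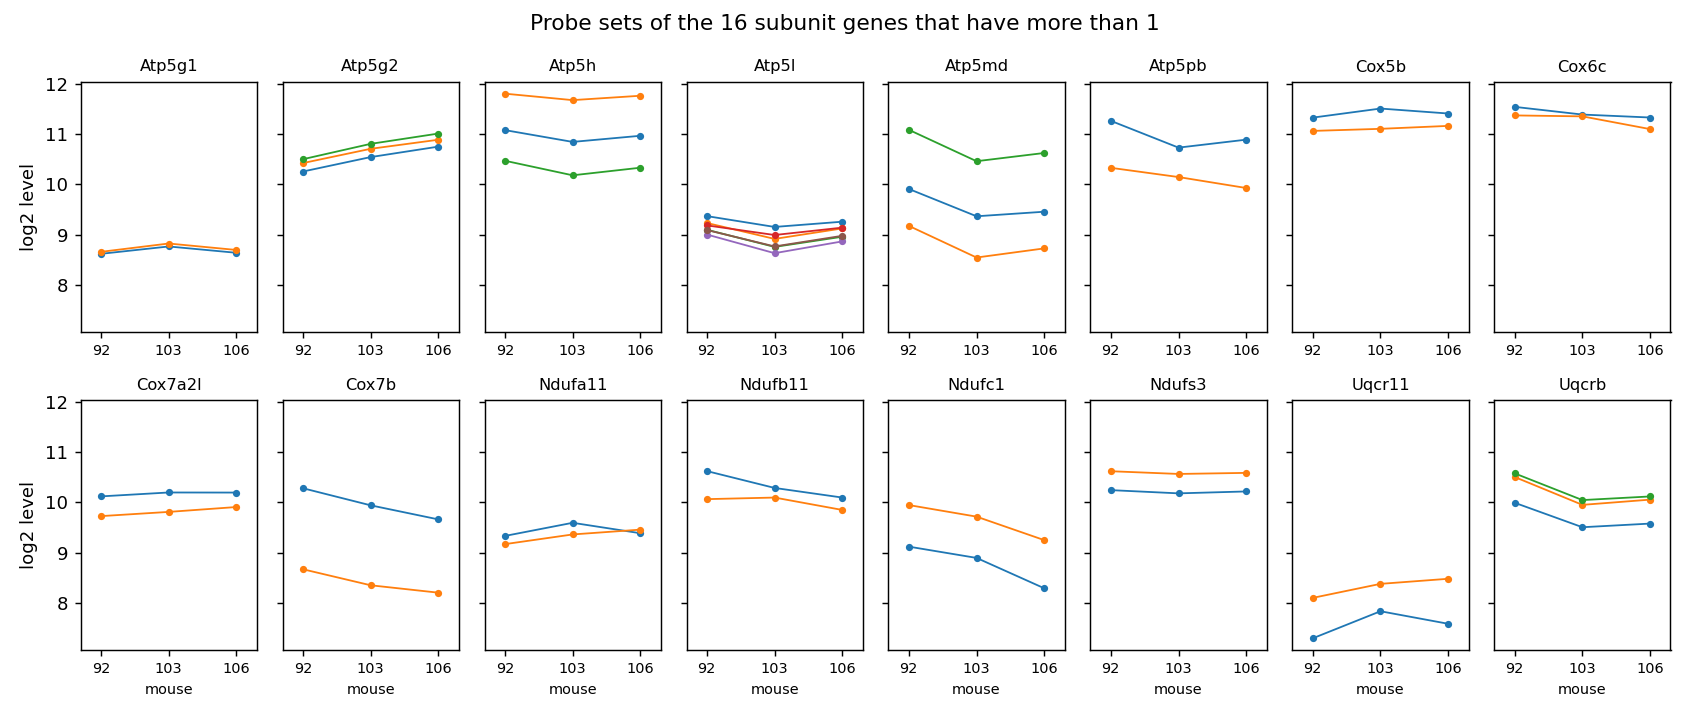
Log2 level (vertical axis) on the arrays of mice 92, 103 and 106 (horizontal axis) for each probe set of the 16 genes with more than 1; a line joins the values of a probe set. The lines of a gene lie up to 1.91 apart in mean (Atp5md) but run nearly parallel in most genes.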

How the data were processed

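Thymocyte RNA of 3 wt mice was labelled with biotin and read on Affymetrix MoGene 1.0 ST arrays. The deposited table holds log2 levels of 35557 probe sets, made with Affymetrix Expression Console per the submitters' processing notes; its version and its background correction, summarisation and normalisation steps were not given in the sources used here, and the log2 scale was inferred from the range of 1.76 to 14.96. Array medians were 6.70, 6.71 and 6.72. Depth has no counterpart on arrays, and their number, 3, limits the precision.

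Probe sets with 1 symbol in the platform annotation (21789) were averaged per gene, with no coordinates used for them. For variation between mice, limma 3.58.1 (R 4.3.3) fitted a mean to every gene, and the residual variance was set against a level-dependent prior (non-robust, 10.4 prior degrees of freedom) by an upper-tail F test, over genes above background on at least 1 array. The test was also run on data simulated from the model that it assumes, which cannot show how it performs where real arrays depart from that model. The p-values set the spread between these 3 arrays against that of genes of like level. With 1 array per mouse, differences between animals and between arrays cannot be told apart. Levels of different genes were not tested against each other.

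Named were members not above background, all isoforms, the 5 with the largest ranges, most of the highest and lowest examples per complex and most genes with several probe sets. The members and lists were chosen with earlier results of these data known. Alternatives were other normalisations, thresholds, priors and each mouse left out.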

Additional observations from a re-analysis of the deposited data

Results flagged for a closer look

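Signal was also found in probe sets outside the gene rule. On all 3 arrays, 6 probe sets were above background whose annotation holds several symbols, at least 1 of them of the subunit series; their log2 levels lay between 8.26 and 10.62. A gene and its copy cannot be told apart there, so they were left unnamed, and 6 protein-coding RefSeq genes of these series had no probe set with a single symbol.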

How the results depend on the processing

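Of 201 alternative values computed for 22 results, 191 kept their side of the threshold or stayed near the first value, and 10 moved. These limits were wide: a count could change by a fixed ratio, and a median deviation per mouse by up to 0.067. That is more than the deviations of mice 92 and 103 themselves (0.0327 and 0.0356). A change to -0.0059 in mouse 92 after quantile normalisation, and to -0.0411 in mouse 106 without mouse 92, thus counted as near. The tally says little about the deviations. With the 99th percentile of receptor genes as background, 3 tissue isoforms passed in place of 5. Members above background numbered 76 to 80 under every threshold, normalisation, choice of probe set and mouse left out. The count of members that passed the variance test was 0 under each alternative. That of all genes was 18 after quantile normalisation and 18 after cyclic loess, 48 to 84 with 1 mouse left out, and 0 with the per-gene degrees of freedom of a robust prior (600 at an unadjusted p under 0.05, limma). Members with a range of 0.5 or more numbered 2 to 5 with 1 mouse left out, where a range covers fewer arrays. The cause of the other changes was not tested. No paired analysis was possible because the labels name 1 group. Genes near the receptor thresholds, and any level compared between genes, are limited by probe signal over background.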

Other observations

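Genes of the mitochondrial ribosome, which translates the subunits encoded by mitochondrial DNA, were examined after the other values had been seen. All 77 named Mrpl and Mrps genes were above background on all 3 arrays, against 61.8% of all named genes, with mean log2 levels from 6.61 to 10.76. Their median deviations were 0.02, 0.03 and -0.03 in mice 92, 103 and 106. In the limma variance test 0 of them passed, against 0.225% of all genes. At an unadjusted p under 0.05 there were 5, against 4.84% of all genes (limma). Tfam, which packages mitochondrial DNA, was at 9.32, 8.60 and 8.53 in mice 92, 103 and 106, highest in mouse 92 (adjusted p = 0.499, limma). The electron-transfer gene Etfdh was at 10.31, 10.06 and 9.61, lowest in mouse 106, and did not pass either (adjusted p = 0.764, limma).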
